A study of Mus musculus with 435 samples.

Results

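The genes described here bear symbols of the mouse solute carrier families Slc1, Slc3, Slc6, Slc7, Slc36, Slc38 and Slc43, called the amino acid families here. Some of their members carry other substrates, such as Slc6a8 (creatine) and Slc43a3 (purine nucleobases), and were counted with them. The Slc16 family was included too, whose carriers take up lactate, ketone bodies, creatine, thyroid hormone or aromatic amino acids. Members were chosen by a rule on gene symbols that used no measured value, apart from a single gene not reported here. Earlier results of these data were known when the members were chosen. Of 13379 genes on the arrays, 59 matched: 46 genes of the amino acid families, 11 Slc16 genes, which are counted apart, and the 2 opposite-strand transcripts Slc36a1os and Slc6a19os, which are named after carriers but encode none of these families' known transporters. Expression was measured in livers of 435 mice, with 1 Affymetrix array per mouse. All mice were db/db, homozygous for a leptin receptor deficiency that removes the satiety signal of leptin and leads to obesity and diabetes. They were F2 mice of a cross begun with DBA/2J females and C57BL/6 db/+ males, whose db/+ offspring were interbred, so each mouse carried its own mixture of the parental genomes, and all ate chow. At 5 weeks of age 118 females and 101 males were taken, and at 12 weeks 110 and 106. No lean mice were analysed here, so no value compares a diabetic with a healthy liver. The labels give no litter or cage, so mice were treated as independent.

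Hepatocytes take up amino acids from portal blood, burn their carbon, turn their nitrogen into urea in periportal cells, and make glutamine from leftover ammonia in perivenous cells. The carriers on their surface and lysosomes set which amino acids enter and leave. Heavy chains such as Slc3a1 and Slc3a2 carry no amino acid themselves but bring light chains of the Slc7 family to the plasma membrane. In liver, insulin lowers and glucagon and glucocorticoids raise many genes of amino acid uptake and breakdown.

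Values are log2 intensities, so a difference of 1 is a doubling, and ± after a difference is its standard error (SE). Because each probe set has its own affinity for its transcript, differences in level are read between mice and not between genes. The mean of a gene is set against those of all genes only as a rough mark of how bright its probe set is. A gene was called where limma gave an adjusted p under 0.05 over all 13379 genes. Of the 59 genes, 18 had a mean under 4.64, the lower quartile of all gene means, where signal and background are hardest to separate. These were 14 of the 46 amino acid family genes and 4 of the 11 Slc16 genes. No gene was dropped for a low value. The tissue is bulk liver, in which fewer cells of a type and less RNA per cell cannot be told apart. The hepatocyte gene Alb had a mean of 15.17, near the top of the arrays' range. In 8 arrays, X-linked genes lay nearer to the other sex than to the label, 3 of them among 5-week females, 2 among 5-week males, 2 among 12-week females and 1 among 12-week males. Without them the members called were 25 for age in females, 27 for age in males, 21 for sex at 5 weeks and 13 for sex at 12 weeks, against 26, 29, 20 and 13 with them.

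Promoter sequences were at hand from RefSeq (GRCm38.p6) for 42 of the 59 genes, and 13 of these were among the 20 genes whose expression moved with insulin at 12 weeks, as described further on. Shown here are the 5 with the largest insulin slopes among those whose listed window ends at the outermost annotated start of the gene, because they moved with the same hormone in different directions. Each is the 250 bases before the start, 5′ to 3′ on the gene's strand, with capitals marking any match on either strand to GGGCGG (the GC box), CCAAT (the motif of the factor NF-Y), TATAAA (the usual binding motif of the TATA-binding protein), TGATGNAA (a motif bound by ATF4 with C/EBP proteins on amino acid shortage) or GTAAACA (the forkhead motif).
Slc3a1, chr17:85028097-85028346, plus strand: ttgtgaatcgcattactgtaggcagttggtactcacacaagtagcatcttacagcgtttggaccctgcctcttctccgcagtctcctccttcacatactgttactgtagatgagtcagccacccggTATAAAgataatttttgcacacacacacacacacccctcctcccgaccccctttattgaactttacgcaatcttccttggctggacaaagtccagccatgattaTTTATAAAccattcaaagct
Slc1a4, chr11:20332714-20332963, minus strand: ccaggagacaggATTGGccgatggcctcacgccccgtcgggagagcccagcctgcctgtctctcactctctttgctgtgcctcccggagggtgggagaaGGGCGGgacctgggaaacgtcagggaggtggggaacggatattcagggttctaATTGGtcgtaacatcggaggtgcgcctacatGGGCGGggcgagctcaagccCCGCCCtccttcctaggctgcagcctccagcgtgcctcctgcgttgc
Slc38a2, chr15:96699729-96699978, minus strand: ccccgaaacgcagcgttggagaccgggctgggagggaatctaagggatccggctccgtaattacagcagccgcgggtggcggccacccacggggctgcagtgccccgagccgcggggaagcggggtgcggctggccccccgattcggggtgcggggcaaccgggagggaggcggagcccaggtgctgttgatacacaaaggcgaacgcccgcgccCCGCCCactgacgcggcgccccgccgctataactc
Slc6a9, chr4:117835008-117835257, plus strand: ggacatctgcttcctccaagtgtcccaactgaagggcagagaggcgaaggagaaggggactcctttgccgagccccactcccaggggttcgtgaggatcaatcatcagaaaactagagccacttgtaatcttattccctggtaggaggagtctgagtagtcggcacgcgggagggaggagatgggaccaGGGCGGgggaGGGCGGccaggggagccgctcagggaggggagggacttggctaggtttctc
Slc6a12, chr6:121342324-121342573, plus strand: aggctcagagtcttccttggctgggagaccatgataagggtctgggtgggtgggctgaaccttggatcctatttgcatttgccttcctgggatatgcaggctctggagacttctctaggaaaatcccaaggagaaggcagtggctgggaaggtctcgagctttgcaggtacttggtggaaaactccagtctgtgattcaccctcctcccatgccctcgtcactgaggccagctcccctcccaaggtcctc

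The windows differ in makeup. Slc3a1 had 45.6% G and C and a TATAAA that begins 18 bases before the start and overlaps its own reverse match, while Slc38a2 had 72.0% G and C and a single GC box. Slc1a4 held 3 GC boxes and 2 CCAAT matches, Slc6a9 held 2 GC boxes in its outermost window of 3, and Slc6a12 held no match in its outermost window of 5. Over all 32851 windows of the table, GGGCGG occurred in 32.7%, CCAAT in 33.8%, TATAAA in 12.4%, TGATGNAA in 3.45% and GTAAACA in 3.17%. Among the 42 members with a window, TGATGNAA was found in Slc6a21 and Slc7a7 and GTAAACA in Slc36a3. A match is a description of these letters and not a bound site.

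Between 5 and 12 weeks, Slc43a1, Slc1a4 and Slc1a5 fell in both sexes, while the glycine carrier Slc6a9 rose in both. In females 26 of the 59 genes were called for age, 11 higher and 15 lower at 12 weeks, and in males 29, 12 higher and 17 lower. This share of members (44.1% and 49.2%) was close to that of all genes, of which 46.2% were called in females (22.1% up, 24.2% down) and 46.3% in males (22.3% up, 24% down). Most differences were small: the median size among the members was 0.046 in females and 0.053 in males, against 0.050 and 0.053 over all genes. Among the 46 amino acid family genes, 6 rose and 13 fell in females, and 9 rose and 13 fell in males. Of the Slc16 genes 4 rose and 2 fell in females, and 3 rose and 3 fell in males. Both sexes shared 19 called members, 73.1% of those called in females and 65.5% of those called in males, and all 19 had the same direction in both. Over all genes the shared calls made up 71.8% and 71.7%, and 98.4% of them had the same direction, so the members were close to genes in general.

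Slc43a1, a carrier of leucine, phenylalanine and other large neutral amino acids, had the largest age difference of the members in females. Its level ran from 6.546 to 8.049 (median 7.275) in females at 5 weeks and from 5.933 to 7.53 (median 6.596) at 12 weeks. In males it ran from 6.272 to 8.022 (median 7.154) at 5 weeks and from 5.858 to 7.736 (median 6.699) at 12 weeks. The ranges overlapped, yet only 5.45% of 12-week females and 20.8% of 12-week males lay above the 5-week median of their sex. The difference was -0.68 ± 0.047 in females, a 1.60-fold fall (limma, adjusted p = 5.5e-37), and -0.42 ± 0.050 in males (limma, adjusted p = 1.42e-14). It was the only member to reach a 1.5-fold difference with age in females, where 100 of all genes did so, and no member did in males. The fall was smaller in males by 0.26 ± 0.067 (limma, adjusted p = 0.0033). Without batch 1 this difference between sexes was 0.21 and was not called.

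**Figure D1:**
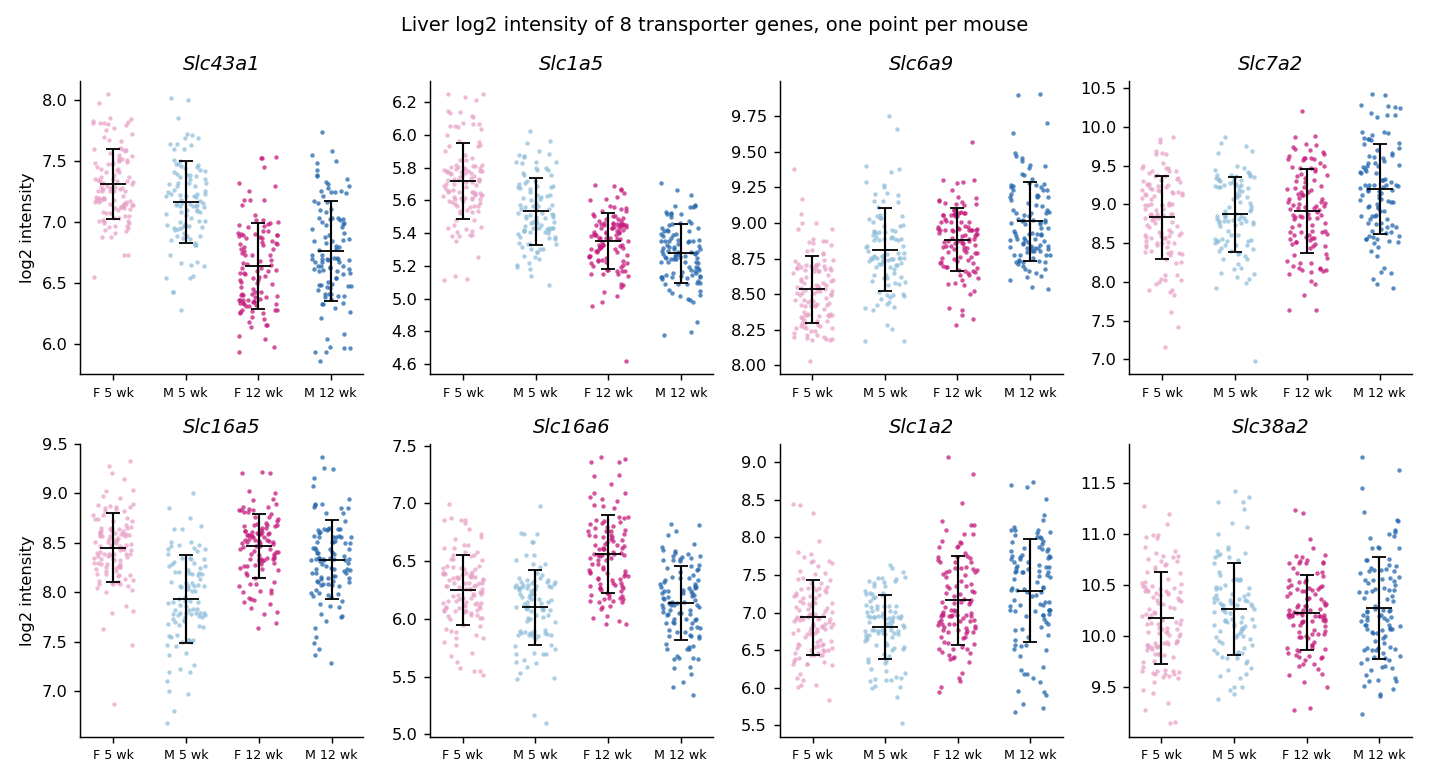
Log2 intensity (y axis, a separate scale for each gene) of 8 carrier genes in the 4 groups (x axis), with a point for each mouse and bars for the mean ± SD. Slc43a1 and Slc1a5 sit lower at 12 weeks, Slc6a9 sits higher, Slc16a5 is low in 5-week males, Slc16a6 is high in 12-week females, and Slc38a2 spreads widely within each group.

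Both neutral amino acid exchangers of the Slc1 family, Slc1a4 and Slc1a5, fell too. Slc1a5, an exchanger of glutamine and other neutral amino acids, had medians of 5.711 in 5-week females and 5.371 in 12-week females, and 5.508 and 5.275 in males. None of the 110 females at 12 weeks (0%) lay above the 5-week female median, and 12.3% of the males did, although the ranges overlapped (5.114 to 6.248 against 4.62 to 5.695 in females). The differences were -0.37 ± 0.027 and -0.27 ± 0.029 (limma, adjusted p = 9.24e-34 and 1.43e-17). Slc1a4, which exchanges alanine, serine, cysteine and threonine, had medians of 6.406 and 5.944 in females and 6.244 and 5.858 in males. It fell by 0.43 ± 0.048 in females and by 0.35 ± 0.051 in males (limma, adjusted p = 2.94e-16 and 1.63e-10).

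Slc6a13, Slc6a12, Slc38a3 and Slc16a10 also fell in both sexes. Slc6a13, which takes up taurine and GABA in hepatocytes, differed by -0.18 ± 0.021 in females and -0.22 ± 0.022 in males. Slc6a12, a betaine and GABA carrier, fell by 0.22 ± 0.023 in females and by 0.074 ± 0.025 in males, and the difference between these was 0.15 ± 0.033 (limma, adjusted p = 0.000674). That difference was not called without batch 2, where it was 0.12. Slc38a3, a glutamine carrier of hepatocytes, fell by 0.21 ± 0.030 in females and by 0.095 ± 0.032 in males. In males the sign of Slc38a3 turned in batch 1 (0.021). Slc16a10, a carrier of aromatic amino acids, fell by 0.31 ± 0.034 in females and by 0.099 ± 0.036 in males, and its fall was smaller in males by 0.21 ± 0.048 (limma, adjusted p = 0.000809), a difference that was 0.16 and not called without batch 2. Slc6a6, the taurine carrier, fell in females (-0.12 ± 0.033) and was not called in males (-0.021 ± 0.035).

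Both heavy chains were lower at 12 weeks in females. Slc3a1, the partner of the cystine carrier Slc7a9 in kidney and gut, fell by 0.42 ± 0.062 in males (limma, adjusted p = 1.83e-10) and by 0.21 ± 0.058 in females, where the sign turned in batch 3. Its medians were 9.519 and 9.026 in males and 9.362 and 9.116 in females, with ranges that overlapped in both sexes (8.173 to 10.42 and 8.108 to 10.81 in males). Slc3a2, the heavy chain of most Slc7 light chains, fell by 0.12 ± 0.029 in females and was not called in males (-0.045 ± 0.031). Of the light chains, Slc7a7 fell in both sexes (-0.11 ± 0.041 and -0.19 ± 0.043) and so did Slc7a8 (-0.062 ± 0.022 and -0.056 ± 0.024). The sign turned in batch 3 for Slc7a7 in males (0.058) and in batch 1 for Slc7a8 in females (0.0083). Group means of Slc7a8, 4.174 to 4.266, lay under the lower quartile of gene means (4.64). Slc7a6, Slc7a9 and Slc7a10 were called in none of the 19 comparisons. The mean of Slc7a9 lay above only 0.613% of gene means. Slc7a7 is strongly expressed by macrophages. Of 15 macrophage markers, 10 fell and 0 rose with age in females, and 14 fell and 0 rose in males. Of all genes 24.2% and 24% fell. Other lists fell too: of 12 hepatocyte markers 7 fell and 1 rose in each sex. Of 10 lymphocyte markers 3 fell in females and 7 in males, and 0 rose. At 12 weeks 13 of the 15 macrophage markers were lower in males, where Slc7a7 was not called (limma, adjusted p = 0.12). All 10 genes most like Slc7a7 lay on its own chromosome, as given further on. With group and batch means removed, Slc7a7 correlated positively with 15 of the 15 macrophage markers (median r = 0.316, 435 mice, highest with Cd68). The part of the markers in this result was not tested.

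A smaller set rose with age. Slc6a9, a glycine carrier of hepatocytes, had medians of 8.522 in 5-week and 8.899 in 12-week females, and 8.767 and 8.966 in males. Of the females at 12 weeks 94.5% lay above the 5-week female median, and of the males 83% lay above theirs. It rose by 0.33 ± 0.034 in females and by 0.18 ± 0.037 in males (limma, adjusted p = 7.86e-19 and 8.04e-06). The rise was smaller in males by 0.16 (-0.16 ± 0.049, limma, adjusted p = 0.0263), a difference that was -0.11 without batch 1 and -0.16 without batch 3, with no call in either case. Slc38a7, a lysosomal glutamine carrier, rose by 0.10 ± 0.017 and 0.12 ± 0.018, and Slc38a10 by 0.16 ± 0.028 and 0.091 ± 0.029. In males the sign of Slc38a10 turned in batch 4 (-0.023). Slc7a2, a cationic amino acid carrier that brings arginine, lysine and ornithine into hepatocytes, rose in males (0.31 ± 0.077, limma, adjusted p = 0.000205), where its median was 8.848 at 5 weeks and 9.185 at 12 weeks. In batch 3 this rise was 0.026, against 0.34 to 0.47 in the other large batches. Slc7a2 was not called in females, with medians of 8.87 and 8.928, and the age by sex difference of Slc7a2 was not called.

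Slc1a2, a glutamate carrier that liver expresses in perivenous cells, gave results that depend on the probe set. The probe set used here rose by 0.18 ± 0.075 in females and 0.44 ± 0.079 in males, whereas the dimmer of its 2 probe sets differed by -0.158 and -0.126. Its direction with age is therefore not settled by these arrays. Other values of Slc1a2 given here are of the brighter probe set, except where the mean of both is named. The perivenous markers moved with age: of 13 measured, 10 fell and 1 rose in females, and 8 fell and 3 rose in males, against the same 24.2% and 24% of all genes that fell. The part of these markers in the values of the carriers was not tested.

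**Figure D2:**
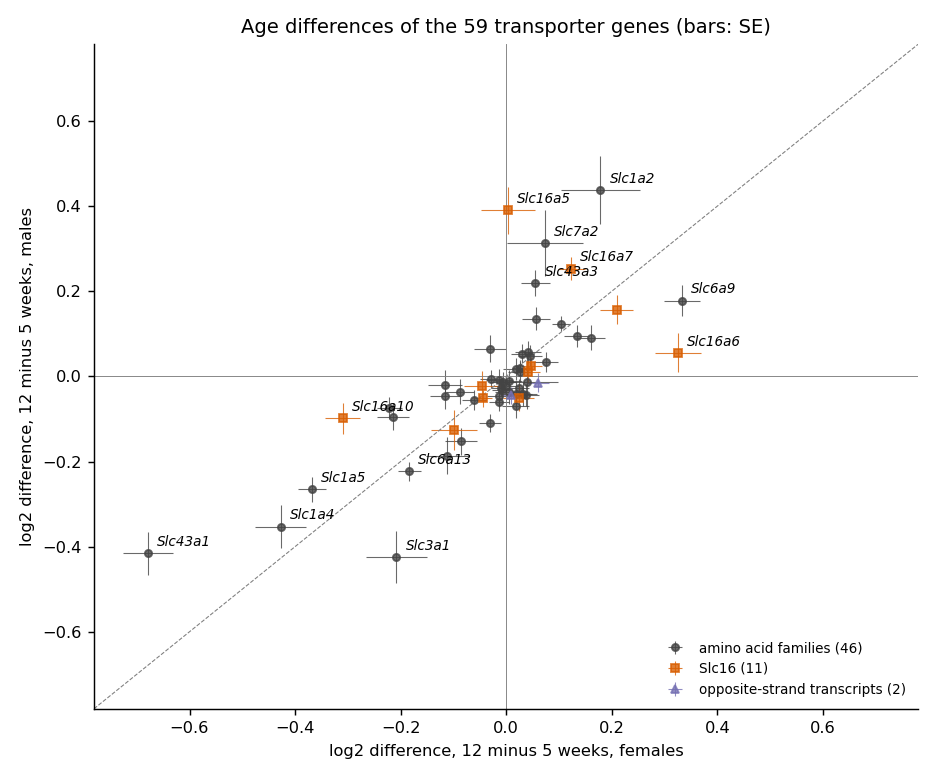
Age difference in females (x axis) against that in males (y axis), both in log2 units, for the 59 genes with SE bars. Points on the dashed line have equal differences. Slc43a1 lies at -0.68 and -0.42, Slc16a5 at 0.0029 in females and 0.39 in males, and Slc16a6 at 0.33 in females and 0.055 in males.

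Within the Slc16 family, Slc16a7 and Slc16a13 rose with age in both sexes, Slc16a10 and Slc16a11 fell in both, and 5 of the 11 genes were not called in each sex. The sign turned in batch 1 for Slc16a11 in males (0.054). Slc16a5, an Slc16 carrier of organic anions and drugs, had a median of 7.909 in 5-week males and 8.337 in 12-week males, a rise of 0.39 ± 0.054 (limma, adjusted p = 3.35e-11). In females the medians were 8.466 and 8.507 and the difference was 0.0029 ± 0.051 (limma, adjusted p = 0.972). The difference between the sexes was 0.39 ± 0.073 (limma, adjusted p = 3.02e-05), and it had the same sign in each of the 4 large batches (0.27 to 0.50). Slc16a6, linked to ketone body export from hepatocytes, behaved the other way round. It rose by 0.33 ± 0.043 in females (limma, adjusted p = 2.95e-12) and was not called in males (0.055 ± 0.046), with a difference of -0.27 ± 0.061 that turned sign in batch 2 (0.042). Slc16a7, a high-affinity carrier of lactate and pyruvate, rose by 0.12 ± 0.026 in females and 0.25 ± 0.028 in males. Slc16a13, another lactate carrier of liver, rose by 0.21 ± 0.032 and 0.16 ± 0.034. Its group means of 4.287 to 4.502 lay under the lower quartile of gene means (4.64), where signal and background are hardest to separate. Slc16a1 was not called in any of the 19 comparisons, and its mean lay above 10.7% of gene means.

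Between the sexes, 20 members were called at 5 weeks, 7 higher and 13 lower in males, where 24.9% of all genes were called (10.5% up, 14.4% down). At 12 weeks 13 were called, 5 higher and 8 lower in males, against 18.1% of all genes (8.97% up, 9.08% down). The amino acid families were split evenly, with 7 higher and 7 lower in males at 5 weeks and 5 higher and 4 lower at 12 weeks. In the Slc16 family all called genes were lower in males: 6 of 11 at 5 weeks and 4 of 11 at 12 weeks. The count at 5 weeks fell to 11 without batch 2 and to 13 without batch 3, and that at 12 weeks to 7 without batch 2.

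Slc16a5 had the largest sex difference of the members at 5 weeks. Its level spanned 6.872 to 9.325 among females and 6.673 to 9.004 among males, and 10.9% of males lay above the female median. The difference was -0.52 ± 0.051 (limma, adjusted p = 6.16e-19), and at 12 weeks it was -0.13 ± 0.052 and was not called (limma, adjusted p = 0.0615). Slc16a6 had the largest difference at 12 weeks. Its median was 6.556 in females and 6.141 in males, 9.43% of males lay above the female median, and the difference was -0.42 ± 0.044 (limma, adjusted p = 1.93e-17). At 5 weeks it was -0.15 ± 0.043, and without batch 2 it was -0.096 and not called. Slc16a7 was lower in males at both ages, by 0.21 ± 0.026 and 0.084 ± 0.026. Slc16a9, a carnitine carrier, was lower in males by 0.085 ± 0.030 and 0.16 ± 0.030, with group means of 4.52 to 4.678, around the lower quartile of gene means (4.64). Its 5-week difference was 0.0017 in batch 1.

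In the amino acid families, Slc6a9 was higher in males at 5 weeks by 0.28 ± 0.035 (limma, adjusted p = 4.63e-13) and at 12 weeks by 0.13 ± 0.035. Its 12-week difference was -0.011 in batch 1 and largest in batch 2 (0.22). Slc6a12 was lower in males by 0.22 ± 0.023 and 0.071 ± 0.024, with 13.9% of 5-week males above the female median. The 12-week difference of Slc6a12 turned sign in batch 1 (0.020). Slc1a5 was lower by 0.18 ± 0.027 and 0.081 ± 0.027, and the latter was -0.035 and not called without batch 2. Slc1a4 was lower in males at 5 weeks (-0.18 ± 0.048), a difference of -0.14 without batch 2 and -0.13 without batch 3, with no call in either case. Slc7a2 was higher in males at 12 weeks by 0.28 ± 0.073 (limma, adjusted p = 0.00189), which was 0.21 and not called without batch 2. In batch 3 this difference of Slc7a2 was 0.017, against 0.28 to 0.40 in the other large batches. At 5 weeks its groups had medians of 8.87 and 8.848. Slc38a1, a glutamine carrier, was lower in 12-week males by 0.12 ± 0.026, with group means of 4.353 to 4.477, under the lower quartile of gene means (4.64). It correlated positively with 14 of the 15 macrophage markers (median r = 0.257), and the genes most like it were the leukocyte genes Itgb2 (r = 0.374), Csf1r (0.342) and Ptprc (0.328). At 12 weeks 13 of 15 macrophage and 6 of 10 lymphocyte markers were lower in males, against 9.08% of all genes, and their part in the result was not tested. Slc6a16 was higher in males by 0.067 ± 0.027 at 5 weeks and 0.15 ± 0.027 at 12 weeks.

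Slc43a3, a purine nucleobase carrier, turned between ages: it was lower in males at 5 weeks (-0.081 ± 0.028) and higher at 12 weeks (0.083 ± 0.028). The 12-week difference was largest in batch 1 (0.31) and had the other sign in batch 4 (-0.049). The age by sex difference of Slc43a3 (0.16 ± 0.040) also had the other sign in batch 4 (-0.028). Of the 9 members called for sex at both ages it was the only one to turn. The age by sex test called 8 members, 6 with a more positive age difference in males and 2 with a more positive one in females, against 8.56% of all genes. The macrophage markers, which were lower in 12-week males as given above, correlated positively with Slc43a3 in 14 of 15 cases (median r = 0.203). The genes most like Slc43a3 were Lrrc47 (r = 0.499) and Esam (0.497). Of 14 endothelial markers 7 were lower and 0 higher in males at 5 weeks, and 3 were lower and 1 higher at 12 weeks. Correlations with the endothelial markers were not computed, and the part of either set of markers was not tested.

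**Figure D3:**
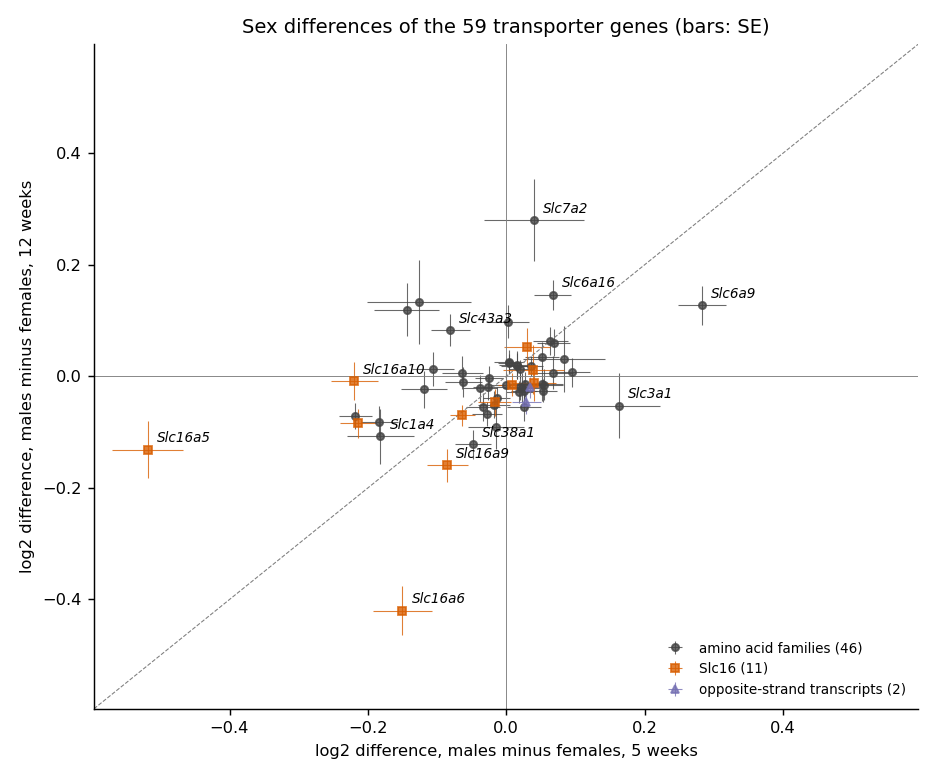
Male minus female log2 difference at 5 weeks (x axis) against 12 weeks (y axis) for the 59 genes with SE bars. Slc16a5 lies far left at -0.52 and Slc16a6 lies lowest at -0.42, while Slc6a9 and Slc7a2 lie highest on either axis at 0.28.

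At 12 weeks plasma glucose spanned 149 to 814 mg/dl among the females and 157 to 1061 mg/dl among the males. Insulin spanned 10.5 to 283 µIU/ml among the females and 7.01 to 214 among the males. A slope is the log2 difference in expression per 1 SD of a trait on the log2 scale, scaled within sex, with sex and batch as covariates. Insulin and glucose opposed each other at 12 weeks (r = -0.461, 216 mice) and barely did so at 5 weeks (r = -0.11, 219 mice), so their slopes at 12 weeks are not separate measurements.

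With insulin, 20 members were called at 12 weeks, 11 lower and 9 higher in mice with more insulin, against 27.5% of all genes. The count was 8 without batch 2 and 13 with insulin not logged. At 5 weeks limma called 0 members, with 11 at an unadjusted p under 0.05, against 2.45% of all genes called. Slc43a1 had a slope of -0.21 ± 0.022 at 12 weeks (limma, adjusted p = 5.48e-16) and of -0.061 ± 0.022 at 5 weeks. Slc7a2 had a slope of -0.21 ± 0.036, Slc1a2 one of -0.17 ± 0.042, which was -0.12 and not called without batch 2, and Slc3a2 one of -0.12 ± 0.015 (limma, adjusted p = 3.44e-12). Slc16a10 (-0.092 ± 0.015), Slc3a1 (-0.092 ± 0.033), Slc6a6 (-0.087 ± 0.017) and Slc38a2 (-0.075 ± 0.029) were lower as well. Slc3a1 lost its call when batch 1, 2 or 3 was left out, with slopes from -0.090 to -0.082. The slopes of Slc1a2, here and below, are of the brighter of its 2 probe sets, which differed in sign with age. Slc1a4 (0.080 ± 0.022), Slc6a9 (0.064 ± 0.017) and Slc7a7 (0.054 ± 0.020) were higher in mice with more insulin. Macrophage markers moved alongside Slc7a7, with 5 higher and 1 lower of 15, as did lymphocyte markers, with 4 higher and 0 lower of 10, and their part in its slope was not tested.

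The insulin slope differed between ages in 8 members, against 13.2% of all genes, and in 2 without batch 2 or 5 with insulin not logged. The largest were Slc7a2 (-0.18 ± 0.050), Slc1a2 (-0.16 ± 0.053), Slc43a1 (-0.15 ± 0.031) and Slc3a2 (-0.097 ± 0.019; limma, adjusted p = 3.32e-05). Slc7a2 was not called without batch 1 (-0.14) or without batch 2 (-0.15), and Slc1a2 not without batch 1 (-0.12) or batch 2 (-0.11). Between the sexes at 12 weeks limma called no insulin slope as different (0 members, 2 at an unadjusted p under 0.05), where 0.0972% of all genes were called.

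Slc7a2, Slc43a1 and Slc6a9 had glucose slopes at 12 weeks of the opposite sign to their insulin slopes. With glucose, 9 members were called at that age, 5 higher and 4 lower, against 12.9% of all genes, and the count was 3 without batch 2 and 4 with insulin in the same fit. Slc7a2 rose by 0.18 ± 0.037 per SD of glucose (limma, adjusted p = 0.000127), and by 0.11 without batch 2, where it was not called. Slc43a1 rose by 0.14 ± 0.024 (limma, adjusted p = 1.71e-06), and Slc6a9 fell by 0.11 ± 0.016 (limma, adjusted p = 3.73e-08). With insulin in the same fit the slopes were 0.10 for Slc7a2 and 0.060 for Slc43a1, and neither was called. At 5 weeks 6 members were called, against 8.12% of all genes. Slc7a2 was again higher with glucose (0.12 ± 0.035), but the call was lost without batch 3 (0.12) or batch 4 (0.11). Slc1a5 was lower with glucose (-0.091 ± 0.014, limma, adjusted p = 4.74e-07). The glucose slope differed between ages in 7 members (3 without batch 2), against 6.58% of all genes: Slc43a1 by 0.18 ± 0.033, Slc6a9 by -0.15 ± 0.024 and Slc16a13 by -0.097 ± 0.023 led. Slc16a13 was not called without batch 2 (-0.069). Between the sexes at 12 weeks 2 members were called, Slc16a5 (-0.16 ± 0.048) and Slc16a7 (-0.095 ± 0.029), against 2.5% of all genes, and both turned sign in batch 4.

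**Figure D4:**
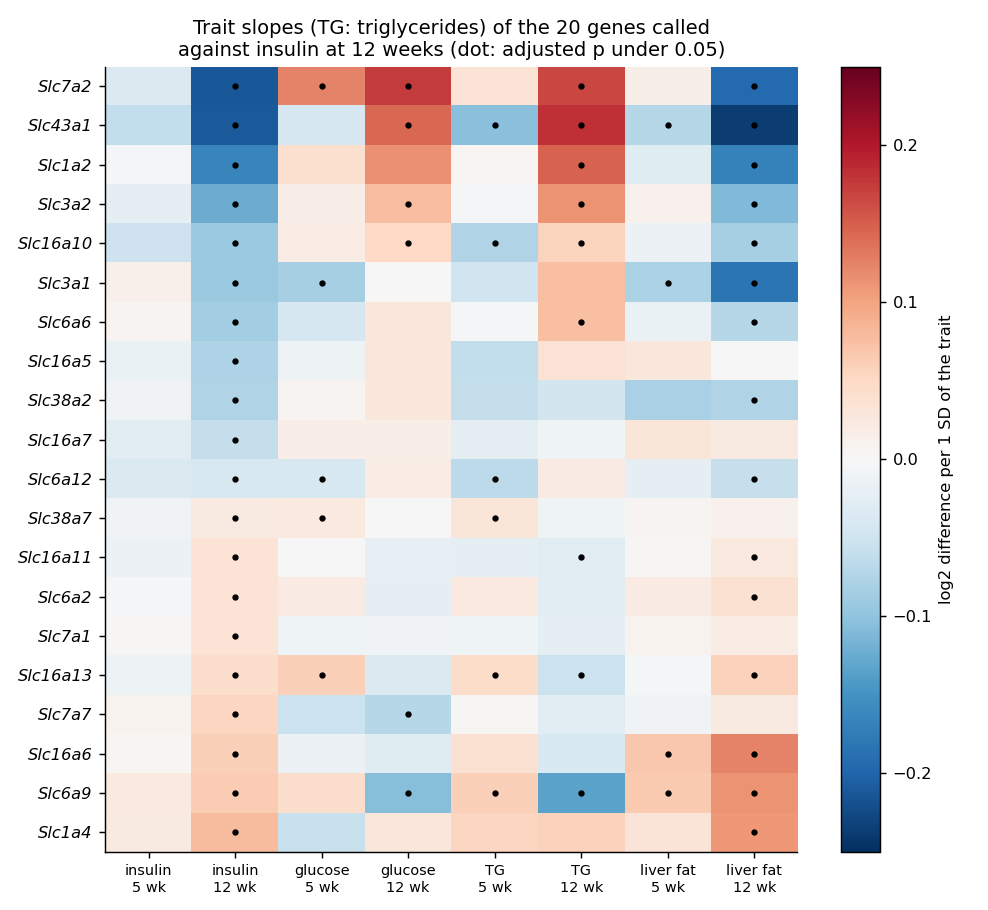
Log2 difference per 1 SD of each trait (colour; x axis, 4 traits at 5 and 12 weeks) for the 20 genes called against insulin at 12 weeks (y axis, ordered by that slope, so that the second column is sorted by construction). Dots mark called slopes. The column of insulin at 5 weeks holds no dot, and triglycerides at 12 weeks reach 0.18 in Slc43a1 and -0.13 in Slc6a9.

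Triglycerides gave slopes that turned sign between ages, in different mice. Slc43a1 was lower in 5-week mice with more triglycerides (-0.10 ± 0.020, limma, adjusted p = 3.55e-05) and higher in such mice at 12 weeks (0.18 ± 0.023, limma, adjusted p = 1.95e-11). Slc6a9 ran the other way, with 0.059 ± 0.017 at 5 weeks and -0.13 ± 0.015 at 12 weeks (limma, adjusted p = 0.00927 and 2.38e-14). The difference between ages was 0.28 ± 0.031 for Slc43a1 (limma, adjusted p = 2.88e-15) and -0.19 ± 0.023 for Slc6a9 (limma, adjusted p = 3.01e-13), and had the same sign in each of the 4 large batches. Slc16a10 (-0.076 ± 0.017 and 0.055 ± 0.016) and Slc16a13 (0.045 ± 0.015 and -0.053 ± 0.016) turned as well. Without batch 1 the 5-week slope was -0.070 for Slc43a1 and -0.056 for Slc16a10, and neither was called. At 12 weeks Slc7a2 (0.17 ± 0.037), Slc1a2 (0.15 ± 0.042) and Slc3a2 (0.11 ± 0.016) were higher as well, and Slc7a2 was not called without batch 2 (0.14). In all 9 members were called at 5 weeks and 16 at 12 weeks, against 14.6% and 19.6% of all genes, and the slope differed between ages in 15, against 16.1% (9 without batch 1, 7 without batch 2). The 5-week count was 4 without batch 1 and the 12-week count 8 without batch 2. The test of the difference between ages for triglycerides and liver fat was added after the slopes had been seen.

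**Figure D5:**
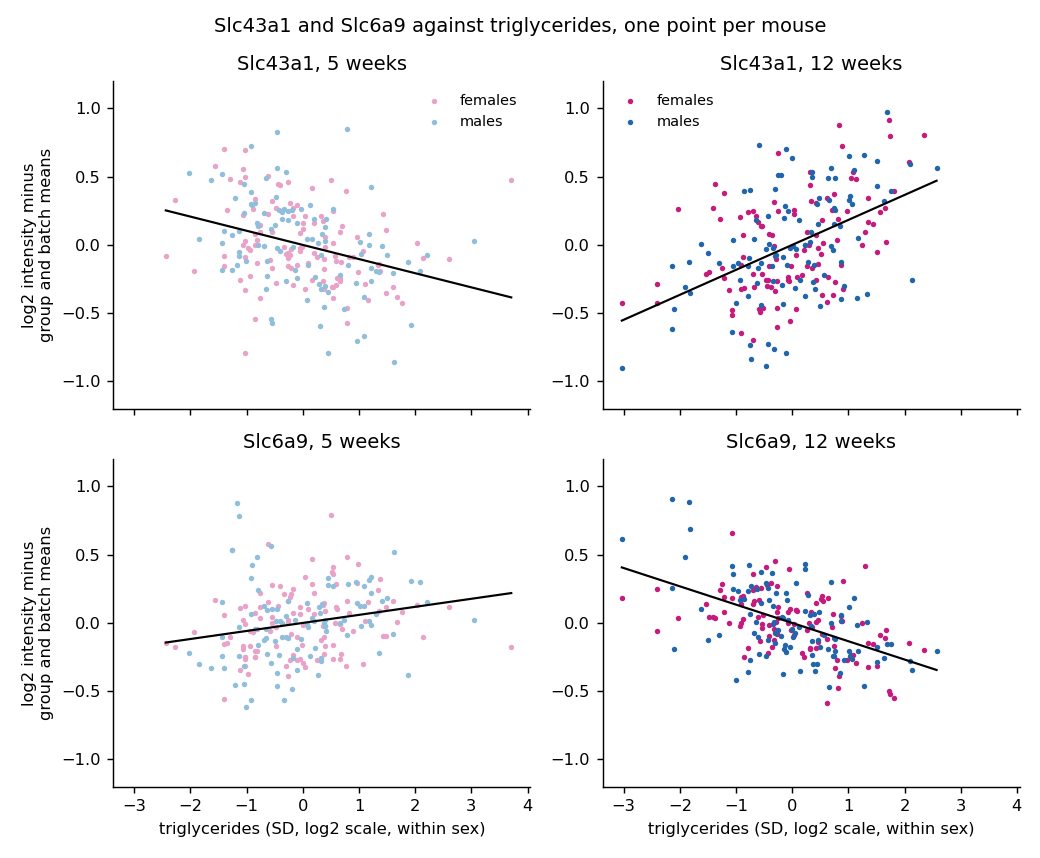
Log2 intensity after removal of group and batch means (y axis) against triglycerides (x axis, SD of the log2 value within sex) for Slc43a1 and Slc6a9 at each age, with a point per mouse and the fitted slope as a line. The line of Slc43a1 falls at 5 weeks (-0.10 per SD) and rises at 12 weeks (0.18), and that of Slc6a9 does the reverse (0.059 and -0.13).

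With liver fat, the fat share of the liver by NMR, 25 members were called at 12 weeks, 11 higher and 14 lower in fattier livers, against 26% of all genes. Slc43a1 fell by 0.24 ± 0.021 per SD (limma, adjusted p = 4.07e-21), Slc7a2 by 0.19 ± 0.036, Slc3a1 by 0.18 ± 0.031, Slc1a2 by 0.17 ± 0.041 and Slc3a2 by 0.11 ± 0.016. Slc16a6 (0.12 ± 0.021), Slc6a9 (0.11 ± 0.016) and Slc1a4 (0.11 ± 0.021) were higher in fattier livers, as was Slc6a8, the creatine carrier (0.081 ± 0.016). At 5 weeks 5 members were called, against 5.6% of all genes. Slc43a1 (-0.071 ± 0.021) and Slc3a1 (-0.079 ± 0.024) were lower then too, and Slc6a9 (0.065 ± 0.017) and Slc16a6 (0.068 ± 0.021) higher, though the count was 1 without batch 1, 1 without batch 3 and 2 without batch 4. The slope differed between ages in 10 members (5 without batch 1 or batch 2), against 12.6% of all genes, led by Slc7a2 (-0.21 ± 0.050), whose sign turned in batch 3, then by Slc43a1 (-0.16 ± 0.029), Slc1a2 (-0.14 ± 0.052) and Slc3a2 (-0.12 ± 0.020). Slc1a2 sat at the threshold (limma, adjusted p = 0.05) and lost its call in most alternatives, among them the mean of its 2 probe sets (-0.075) and the fit without the 8 arrays that go against their sex label (-0.14).

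Genes of amino acid breakdown moved in the same traits. Of 44 measured catabolic enzymes, 30 were lower and 3 higher with insulin at 12 weeks, and 24 were higher and 0 lower with glucose, which is 75% and 54.5% called, against 27.5% and 12.9% of all genes. Their median slope was -0.047 for insulin, against 0.0017 over all genes. This movement was not particular to amino acid breakdown. With insulin at 12 weeks 8 of 13 perivenous markers were lower and 0 higher, and of 13 periportal markers 7 were lower and 2 higher (61.5% and 69.2% called). With glucose 6 perivenous markers were higher and 0 lower, and 7 periportal markers were higher and 2 lower (46.2% and 69.2% called). Of the 8 urea cycle genes 6 were lower and 0 higher with insulin, and 7 were higher and 0 lower with triglycerides at 12 weeks, that is 75% and 87.5% called, against 27.5% and 19.6% of all genes. With age in females, 26 catabolic enzymes fell and 6 rose, and in males 13 fell and 9 rose, that is 72.7% and 50% called, against 46.2% and 46.3% of all genes. The mRNAs of amino acid stress response targets were mixed: of 18 measured, 2 rose and 5 fell with age in females, and 3 rose and 7 fell with insulin at 12 weeks (38.9% and 55.6% called). Of the 17 measured cytosolic aminoacyl-tRNA synthetases, which charge tRNAs with amino acids, 2 were higher and 3 lower with insulin, a share of 29.4% that is near the 27.5% of all genes. Of 25 genes of amino acid sensing upstream of mTORC1, 7 were higher and 4 lower with insulin (44%).

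With group and batch means removed, values of single genes were compared over the 435 mice. Slc43a1 correlated positively with 42 of the 44 catabolic enzymes (median r = 0.312) and with 8 of 8 urea cycle genes (median r = 0.401), where its median r over all genes was -0.0077. Slc6a12 did so with 40 of 44 and 8 of 8 (medians 0.257 and 0.323), and Slc3a2 with 37 of 44 and 8 of 8. Slc6a9 was the opposite, positive with 5 of the 44 enzymes (median r = -0.168). The genes most like Slc43a1 were Gpld1 (r = 0.68), F7 (0.672), Dbt, of branched-chain amino acid breakdown (0.667), Prodh, of proline breakdown (0.663), and Cps1, the entry enzyme of the urea cycle (0.659). Among the members themselves the closest pair was Slc43a1 with Slc6a12 (r = 0.536), followed by Slc16a5 with Slc16a7 (0.462) and Slc16a10 with Slc43a1 (0.391). Members as a whole were no closer to each other than genes in general: the median size of r over 1710 pairs was 0.0691, against 0.0734 for an even sample of genes set against all genes. These genes were named after their values were seen.

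Slc38a2, a carrier of small neutral amino acids that cells induce on amino acid shortage, varied strongly between mice of 1 group and hardly between groups. Its level ran from 9.146 to 11.28 in 5-week females, from 9.385 to 11.42 in 5-week males, from 9.275 to 11.23 in 12-week females and from 9.235 to 11.75 in 12-week males, with medians of 10.15, 10.26, 10.21 and 10.22. Group explained 0.817% of its variance and batch 2.58%, and its SD within groups exceeded that of 98.3% of genes. The gene most like it was Tat, a tyrosine aminotransferase induced by glucocorticoids and glucagon (r = 0.792), then Pptc7 (0.724), Atp1b1 (0.717), Coq10b (0.704) and Errfi1 (0.681). Other members that vary strongly within groups were Slc1a2 (above 99.6% of genes), Slc7a2 (99.5%) and Slc3a1 (98.1%).

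For 4 of the 59 members, 5 or more of the 10 most similar genes lay on the member's own chromosome, often many Mb away. This share is close to that of 13291 genes with a known chromosome, of which 7.06% had 5 or more and the median had 1. All 10 genes most like Slc7a7 lay on chromosome 14 with it, and 9 of the 10 most like Slc7a2 lay on chromosome 8. For Slc16a13 the number was 9, on chromosome 11, and for Slc1a2 it was 5, on chromosome 2. Slc7a2 was most like Saraf (r = 0.674, 6.71 Mb away), Tm2d2 (0.594, 15.8 Mb), Cnot7 (-0.593, 0.37 Mb) and Pcm1 (0.535, 0.377 Mb). Slc7a7 was most like Peli2 (r = -0.618, 6.25 Mb) and Prxl2a (0.614, 13.4 Mb). By contrast none of the 10 genes most like Slc43a1 or Slc38a2 lay on the same chromosome. Genotypes were not used here.

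Members that neighbour each other in the genome were set side by side. Of 18 pairs that start within 1 Mb of each other, r was highest for Slc16a11 and Slc16a13, 3 kb apart on chromosome 11 (0.262), and lowest for Slc36a1 and Slc36a1os, 13 kb apart (-0.213). Slc6a12 and Slc6a13, 42 kb apart on chromosome 6, both fell with age (r = 0.201). Slc43a1 and Slc43a3, 98 kb apart on chromosome 2, had opposite age differences in males, -0.42 and 0.22 ± 0.030 (r = 0.116). Slc36a1, a proton-coupled carrier on lysosomes, fell with age in both sexes (-0.086 ± 0.030 and -0.15 ± 0.032). In females the age difference of Slc36a1 was 0.0034 in batch 4. Slc36a1os rose in females (0.060 ± 0.021, limma, adjusted p = 0.0112) and was not called in males (-0.015 ± 0.022). Its difference in females had the other sign in batch 1 (-0.0105).

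Heavy chains and their light chains were set against each other across mice, as were carriers and the proteins or enzymes they work with. Of 11 such pairs in the 4 groups, 44 correlations in all, 1 passed the adjusted threshold. Slc16a7 correlated with Bsg, the membrane chaperone of lactate carriers, in 12-week females (r = 0.452, Spearman's rho = 0.464, permutation p = 1e-05 for both, the smallest these permutations can give, adjusted p = 0.00044, 108 mice). Without the 2 mice farthest from the median r was 0.428, and within batches 1 to 4 it was -0.122, 0.594, 0.506 and 0.334, so that it did not hold in batch 1. In the other groups r was 0.113, 0.0819 and 0.153, and none was called. Slc3a1 with Slc7a9 gave r between -0.0659 and 0.0376, and Slc3a2 with Slc7a6, Slc7a7, Slc7a8 or Slc7a10 gave r between -0.244 and 0.0101. Slc1a2 with Glul, the glutamine synthetase of perivenous cells, gave r from 0.0577 to 0.225, and Slc7a2 with Arg1, the arginase of the urea cycle, from 0.122 to 0.228, none of them called.

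Of the 59 members, 12 were called in none of the 19 comparisons: Slc16a1, Slc1a6, Slc36a3, Slc6a7, Slc6a11, Slc6a18, Slc6a20b, Slc6a21, Slc7a6, Slc7a9, Slc7a10 and Slc7a15. This is 20.3% of the members, against 23.9% of all genes, and the median gene was called in 2 comparisons in both sets. Several of these are known for brain, kidney or gut rather than liver. Slc43a1 was called in 14 comparisons, a number that 0.336% of all genes reached or passed. Slc6a9 was called in 13, which 0.688% of all genes reached or passed, and Slc16a10 and Slc6a12 in 11 each, which 3.11% did. Many of the comparisons share mice.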

How the data were processed

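The authors deposited 1 value per probe set and array, RMA-summarised log2 intensities, per the labels; the software version was not given in the sources used here. Array medians lay between 5.56 and 5.70, and no values were missing. Of 15397 probe sets, 13516 carried 1 gene symbol in the platform annotation, 162 several and 1719 none. The probe set with the highest mean stood for each of 13379 genes; 2 members had several. A single gene of these families is not reported here.

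Comparisons were fitted with limma 3.58.1 in R 4.3.3 on all genes, with Benjamini-Hochberg adjustment and a threshold of 0.05. Age and sex fits used the 4 groups with batch as covariate. Trait slopes used 1 age, with sex and batch. Batch stands for a code in the array names: codes 1 to 4 hold 99, 138, 110 and 86 arrays of all groups, codes 5 and 6 hold 1 each. What the code stands for was not stated. Correlations of partners used 100000 permutations within batch. The fit was tested on simulated data. Alternatives changed the batch term (25 plate codes), scaling, probe set rule, trait scale and arrays. With 1 array per mouse, the number of mice limits the precision.

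Members and lists were chosen with earlier results of these data known. Named genes were the largest called differences with 1 sign in all 4 large batches, 10 for each age comparison, 8 for each sex comparison, 6 for age by sex and for each glucose and insulin slope and 3 for other slopes, and chain partners and uncalled members. Slc38a10, Slc6a6, Slc6a8, Slc36a1, Slc36a1os, Slc38a2 and the genes most like a member were named after their values were seen.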

Additional observations from a re-analysis of the deposited data

Results flagged for a closer look

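The tests of a difference between groups marked 18 results, and no cause was tested for any of them. For age, the difference in males minus that in females was 0.39 for Slc16a5, 0.26 for Slc43a1, 0.21 for Slc16a10, -0.16 for Slc6a9, 0.15 for Slc6a12 and 0.13 for Slc16a7 (limma, adjusted p between 3.02e-05 and 0.0263). Slc16a5 and the fall of Slc43a1 are the largest of these. Slc16a6 (-0.27) and Slc43a3 (0.16) were called too but turned sign in batch 2 and batch 4, and are not listed.

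For the traits, the slope at 12 weeks minus that at 5 weeks differed from 0. For glucose it was 0.18 for Slc43a1, -0.15 for Slc6a9 and -0.097 for Slc16a13. For insulin it was -0.18 for Slc7a2, -0.16 for Slc1a2 and -0.15 for Slc43a1. For triglycerides it was 0.28 for Slc43a1, -0.19 for Slc6a9 and 0.13 for Slc16a10. For liver fat it was -0.16 for Slc43a1, -0.14 for Slc1a2 and -0.12 for Slc3a2. Some of these lost their call in an alternative, as given above. Slc16a13 for glucose did so without batch 2, and Slc7a2 and Slc1a2 for insulin without batch 1 or batch 2. Slc1a2 for liver fat sat at the threshold (limma, adjusted p = 0.05), and its listed values are of the brighter probe set. Slc43a1 appears under each trait, and the 4 traits were measured in the same mice.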

How the results depend on the processing

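No member called in a comparison turned sign in any alternative. Of 1099 values of named genes under alternatives, 1024 stayed on their side of the threshold and 75 lost their call. Named differences and slopes were picked for 1 sign in all 4 large batches, so leaving out a batch could hardly turn them. Some called members that were not picked had the other sign within a batch, such as Slc16a6 for age by sex in batch 2 (0.042). Leaving out a batch changed counts most, and it also leaves fewer mice. Without batch 1 the members called were 4 for age by sex, 1 for the insulin slope at 5 weeks, 4 for triglycerides at 5 weeks, 1 for liver fat at 5 weeks, 0 for glucose by sex, 9 for triglycerides by age and 5 for liver fat by age. Without batch 2 they were 11 for sex at 5 weeks, 7 for sex at 12 weeks, 3 for glucose, 8 for insulin and 8 for triglycerides at 12 weeks, 0 for glucose by sex, 3 for glucose by age, 2 for insulin by age, 7 for triglycerides by age and 5 for liver fat by age. Without batch 3 they were 13 for sex at 5 weeks, 3 for glucose and 1 for liver fat at 5 weeks, 0 for glucose by sex and 6 for liver fat by age. Without batch 4 they were 3 for glucose and 2 for liver fat at 5 weeks and 6 for liver fat by age. Plate codes gave 3 for glucose and 1 for insulin at 5 weeks, and 0 for glucose by sex. With the trait not logged, counts were 1 for insulin and 2 for liver fat at 5 weeks, 13 for insulin at 12 weeks, 0 for glucose by sex and 5 for insulin by age. Normal scores of the trait gave 1 for insulin at 5 weeks and 0 for glucose by sex. Normal scores of expression gave 3 for liver fat at 5 weeks and 1 for glucose by sex, and quantile normalization gave 1 and no batch term 0 for glucose by sex. Glucose and insulin in 1 fit gave 2 for insulin at 5 weeks, 4 for glucose at 12 weeks and 4 for glucose by age. Without the 8 arrays that go against their sex label, 1 member was called for insulin at 5 weeks. The causes were not tested. The slopes by age of triglycerides and liver fat were added after seeing the data. No paired analysis was possible because no mouse number is shared between groups.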
